A study of Mus musculus with 8 samples.

Results

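The genes described here belong to the NF-kB pathway or are inflammatory cytokine genes, and they were measured by RNA sequencing in primary mouse articular chondrocytes, the cells that make and maintain joint cartilage. A list of 39 gene symbols was matched to a table of 24067 genes, and 35 of them, whose FPKM averaged 0.5 or more across the 8 libraries, were kept. FPKM divides a gene's fragments by the length of its transcripts and by the library's mapped fragments, so that levels can be compared between genes. In all, 12517 genes passed the same minimum. There were 4 libraries from cells that received 50 nM of miR-204, a microRNA that represses messenger RNAs complementary to its seed region, and 4 libraries from cells that received 50 nM of the control small RNA miR-Ctrl. Both groups were transfected for 24 h and harvested 24 h after that. All 8 libraries came from ICR mice aged 5 days, whose cells were taken from femoral condyles and tibial plateaus and cultured with serum in an atmosphere of 3% oxygen. The labels name no inflammatory stimulus for either group. The labels do not say whether replicates were cultures or animals of their own, so the p-values below reflect the spread between these samples alone, and that spread may be technical.

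The 4 listed genes under the minimum were all cytokine genes. Csf3, which encodes the granulocyte growth factor G-CSF, averaged 0.121 FPKM, and Il33, an alarmin of the IL-1 family, averaged 0.224 FPKM. Tnf, the founding member of the TNF cytokines, had 0.0359, 0.105, 0.01799 and 0.01800 FPKM in the miR-204 libraries, against 0.0167, 0.157, 0.03600 and 0 FPKM in the miR-Ctrl libraries. Il1b, a classical activator of chondrocytes, had 0, 0.02703, 0 and 0.0224 FPKM in the miR-204 libraries, against 0.0214, 0.0279, 0 and 0 FPKM in the miR-Ctrl libraries. The table also lists 95 cases of a gene at 0 in a library while the other 7 libraries averaged 10 FPKM or more, so a value listed at 0 can be a failed estimate. Both genes lay near 0 in all 8 libraries. Just above the minimum were Traf1, an adaptor of TNF receptors, with a mean of 0.728 FPKM, and Rel, with 0.939 FPKM.

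NF-kB is a family of dimeric transcription factors built from the subunits encoded by Nfkb1, Nfkb2, Rela, Relb and Rel. In resting cells, inhibitors of the IkB family hold the dimers in the cytoplasm. Receptors for TNF, IL-1 and microbial products activate kinases that mark the inhibitors for degradation, and the freed dimers enter the nucleus. Many of their targets are parts of the pathway itself, among them the inhibitor gene Nfkbia and the deubiquitinase gene Tnfaip3, which close feedback loops. In cartilage, NF-kB activity is known for inducing cytokines, nitric oxide synthase and matrix-degrading proteases and for lowering matrix genes.

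The mature miR-204-5p sequence is shown because the transfected cells received a mimic of it. RefSeq places it on build GRCm38.p6 at chr19:22750610-22750631 (+ strand), and capitals mark its seed, bases 2 to 8.
miR-204-5p: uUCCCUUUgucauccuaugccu
The longest 3′ UTR annotated for a gene was searched for matches to this seed. A 7-base or 8-base match was found for 10 of the 35 genes, beside 26% of 11962 tested genes with a 3′ UTR. The longest kind of match, 8 bases, was found for Il1rl1 alone among them. Traf1 and Lif had the 7-base match that pairs with the whole seed. Nfkb2, Rel, Birc2, Birc3, Tnfaip2, Zc3h12a and Il6 had the 7-base match that ends opposite base 1 of the small RNA.

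Promoter sequence is shown because many of these genes are known to be read by NF-kB itself. RefSeq promoter windows on GRCm38.p6, running from 250 bases before to 50 bases after a transcription start, were searched on both strands for the 10-base kB consensus, by which NF-kB dimers recognise DNA. Windows were given for 26 of the 35 genes, and 12 of these 26 (46.2%) held a match in at least 1 window. Of 9946 tested genes with a window, 631 (6.34%) did, and of all 32851 windows searched 1480 (4.51%) did. The 12 genes were Nfkb2, Rel, Nfkbia, Nfkbie, Bcl3, Tlr2, Tnfaip3, Tnip1, Il6, Csf1, Sod2 and Ier3. A match is a description of the letters and not a measured binding site, and the windows were searched with the pathway of the genes known. For 8 genes that recur below, 1 match each is shown with 10 bases on either side, read 5′ to 3′ on the gene's strand, with the match in capitals. They lie at chr19:46304688-46304717 (+ strand) for Nfkb2, chr12:55492657-55492686 (− strand) for Nfkbia, chr17:45555584-45555613 (+ strand) for Nfkbie, chr7:19822734-19822763 (− strand) for Bcl3, chr3:83841762-83841791 (− strand) for Tlr2, chr10:19015403-19015432 (− strand) for Tnfaip3, chr11:54962979-54963008 (− strand) for Tnip1 and chr5:30013060-30013089 (+ strand) for Il6.
Nfkb2: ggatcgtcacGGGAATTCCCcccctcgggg
Nfkbia: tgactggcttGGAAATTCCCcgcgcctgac
Nfkbie: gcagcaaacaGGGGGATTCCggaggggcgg
Bcl3: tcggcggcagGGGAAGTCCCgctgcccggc
Tlr2: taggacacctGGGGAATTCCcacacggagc
Tnfaip3: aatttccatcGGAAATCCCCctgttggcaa
Tnip1: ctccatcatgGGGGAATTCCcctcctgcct
Il6: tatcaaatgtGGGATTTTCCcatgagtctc

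Both libraries with replicate number 2 stood apart from the other 6 in the whole data set. They lay apart on the first principal component, with 57.7% of the variance. Their depth, read from the steps between low FPKM values and given relative to miR-Ctrl replicate 1, was 0.797 (miR-204) and 0.772 (miR-Ctrl), against 0.929 to 1 in the other 6 libraries. Libraries with equal replicate numbers correlated across genes at r = 0.988 to 0.990, and pairs of libraries of the same group at r = 0.939 to 0.988. The ranges overlapped slightly. Results that rest on replicate 2 are therefore also given without it.

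All 10 measured chondrocyte markers were lower in both replicate 2 libraries than in every other library. Their summed level was 13280 FPKM (miR-204) and 13160 FPKM (miR-Ctrl) in replicate 2, against 25174 to 40875 FPKM in the other 6 libraries. Col2a1, the main collagen of cartilage, had 7836 FPKM (miR-204) and 8212 FPKM (miR-Ctrl) in replicate 2, against 16519.5, 21008 and 16098 FPKM in the other miR-204 libraries and 18671, 27530.5 and 19454 FPKM in the other miR-Ctrl libraries. The markers of the labelled cell type were thus present in all 8 libraries. Fewer cells of a type and less RNA per cell cannot be told apart in bulk samples.

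Among the 35 NF-kB pathway genes, 31 (88.6%) were higher in both replicate 2 libraries than in each of the other 6, while 29.9% of all tested genes were. None was lower in both, against 9.16% of all tested genes. The median log2 ratio of replicate 2 over the other libraries was 1.47 for the 35 genes and 0.09 for all 12517 genes, on the FPKM + 1 scale. With centred libraries 29 of the 35 genes had that order beside 14.2% of all tested genes, and with quantile normalization 29 beside 15.3%. Il6 and Nos2 averaged less than 0.5 FPKM outside replicate 2 and passed the minimum only through it, so their excess there was built in by the minimum. Without them the count was 29 of 33 genes, a selection added after seeing the data, beside 29.5% of the 12402 genes that reached the minimum outside replicate 2, and the median log2 ratio was 1.46. Replicate 2 was singled out with earlier results of these data known, so these values are descriptions with no test. The 4 genes without that separation were Rel, Nfkbib, Csf1 and Il1rn. In the sentences below, values of the other libraries are listed by replicates 1, 3 and 4.

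**Figure D1:**
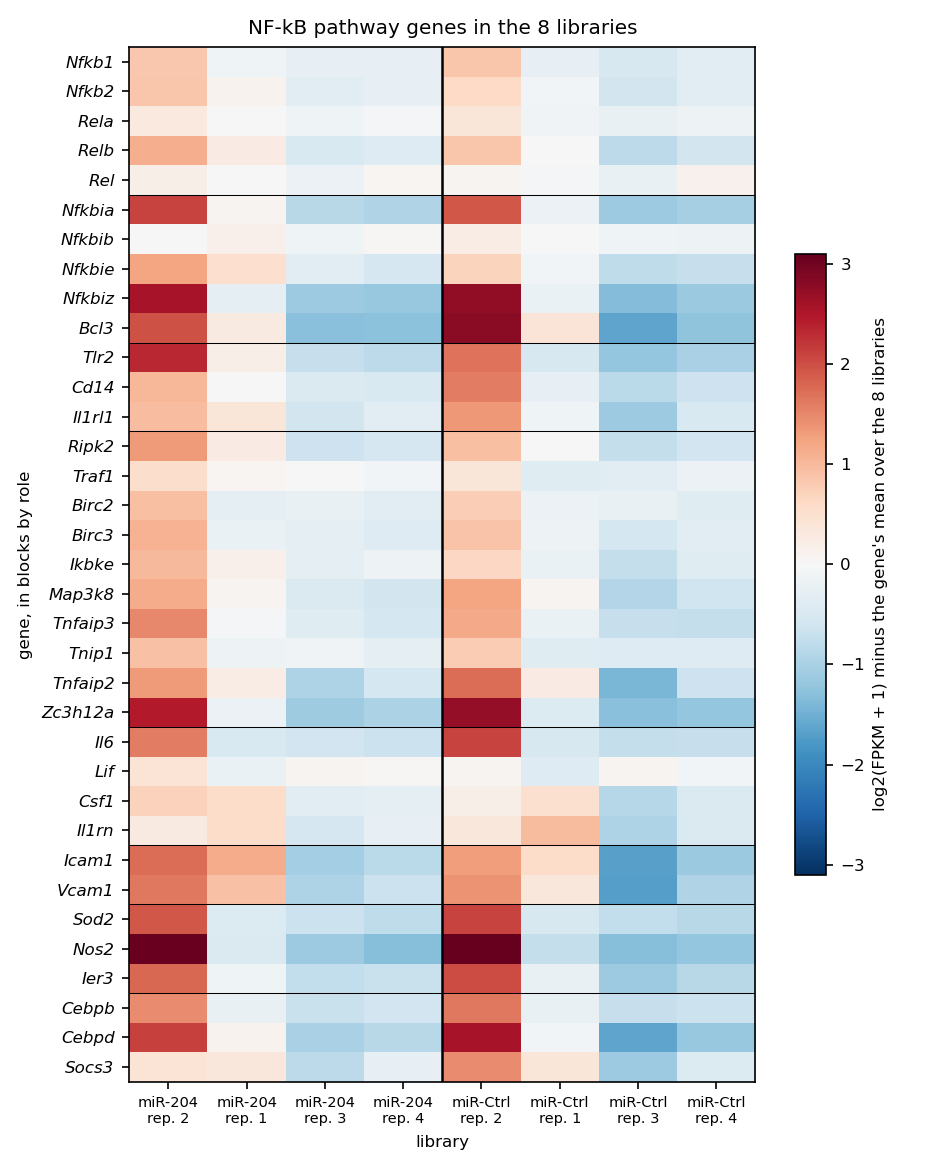
Level of each of the 35 genes in the 8 libraries, as log2(FPKM + 1) minus the gene's mean over the libraries (red above, blue below), in blocks by role, with miR-204 libraries left and miR-Ctrl libraries right of the line. The replicate 2 column of each group is the reddest for most genes, and replicate 1 lies above replicates 3 and 4 in 27 genes.

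The log2 ratio of replicate 2 over the other libraries had a median of 0.98 over the 5 NF-kB subunit genes and of 2.61 over the 5 IkB family genes. Nfkb1 (gene ID 18033, chr3:135584655-135691969), which encodes the p105 precursor of p50, had 34.1 FPKM (miR-204) and 34.3 FPKM (miR-Ctrl) in replicate 2, against 16.9, 15.2 and 15.3 FPKM in the other miR-204 libraries and 15.5, 12.9 and 14.7 FPKM in the other miR-Ctrl libraries. That is 2.27 times the mean of the other 6 libraries, in which levels spread little. Rela (gene ID 19697, chr19:5637442-5648134), the transactivating p65 subunit, had 28.97 FPKM (miR-204) and 30.4 FPKM (miR-Ctrl) in replicate 2, against 23.6, 21.3 and 22.5 FPKM in the other miR-204 libraries and 21.7, 19.9 and 20.7 FPKM in the other miR-Ctrl libraries. Its replicate 2 mean was only 1.37 times that of the rest, although both libraries lay above all others. Nfkb2 and Relb, the pair of the alternative pathway, stood at 2.07 and 2.597 times the other libraries. Rel was low throughout, and its replicate 2 values of 1.197 FPKM (miR-204) and 1.04 FPKM (miR-Ctrl) overlapped the other libraries, which ran between 0.642 and 1.13 FPKM.

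Within the IkB family, the highest ratios were those of Nfkbiz, Bcl3 and Nfkbia. Nfkbia (gene ID 18035, chr12:55489409-55492647), the IkB-alpha gene, had 83.6 FPKM (miR-204) and 74.96 FPKM (miR-Ctrl) in replicate 2, against 19.9, 10.02 and 9.46 FPKM in the other miR-204 libraries and 16.5, 8.14 and 8.77 FPKM in the other miR-Ctrl libraries. Nfkbiz (gene ID 80859, chr16:55811375-55838954), a nuclear IkB protein needed for Il6 induction, had 43.5 FPKM (miR-204) and 50.4 FPKM (miR-Ctrl) in replicate 2, against 5.25, 2.46 and 2.35 FPKM in the other miR-204 libraries and 5.63, 1.99 and 2.41 FPKM in the other miR-Ctrl libraries. Bcl3 (gene ID 12051, chr7:19808462-19822824), a nuclear IkB protein that binds p50 and p52 dimers, had 16.9 FPKM (miR-204) and 30.6 FPKM (miR-Ctrl) in replicate 2, against 4.51, 0.837 and 0.884 FPKM in the other miR-204 libraries and 5.01, 0.449 and 0.904 FPKM in the other miR-Ctrl libraries. In these genes replicate 2 was far above the rest, by 6.53, 14.02 and 11.3 times in the mean. Replicate 1 formed a middle level between replicate 2 and replicates 3 and 4. Nfkbie, another inhibitor, stood at 3.003 times the other libraries. Nfkbib did not follow, with 7.98 FPKM (miR-204) and 9.53 FPKM (miR-Ctrl) in replicate 2, against 7.10 to 9.07 FPKM in the other 6 libraries.

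All 3 receptor genes were higher in both replicate 2 libraries than in the other 6. Tlr2 (gene ID 24088, chr3:83836272-83841824), which senses bacterial lipoproteins, had 89.6 FPKM (miR-204) and 56.2 FPKM (miR-Ctrl) in replicate 2, against 19.2, 9.902 and 9.14 FPKM in the other miR-204 libraries and 11.7, 6.72 and 7.92 FPKM in the other miR-Ctrl libraries. Replicate 2 thus lay 6.77 times above the rest, with the miR-204 library the highest of all 8. Cd14, the co-receptor for lipopolysaccharide, reached 6.30 FPKM (miR-204) and 9.80 FPKM (miR-Ctrl) in replicate 2, against 1.02 to 2.57 FPKM in the other libraries. Il1rl1, the receptor of IL-33, reached 12.6 FPKM (miR-204) and 16.7 FPKM (miR-Ctrl) in replicate 2, against 2.25 to 8.07 FPKM.

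All 10 signalling and feedback genes were above every other library in replicate 2. Zc3h12a (gene ID 230738, chr4:125118414-125127881), the ribonuclease Regnase-1 that degrades inflammatory transcripts, had 29.00 FPKM (miR-204) and 34.8 FPKM (miR-Ctrl) in replicate 2, against 3.83, 1.57 and 1.75 FPKM in the other miR-204 libraries and 3.08, 1.23 and 1.39 FPKM in the other miR-Ctrl libraries. Tnfaip3 (gene ID 21929, chr10:19000910-19015410), the deubiquitinase A20 that shuts off NF-kB signalling, had 5.98 FPKM (miR-204) and 4.56 FPKM (miR-Ctrl) in replicate 2, against 1.39, 0.905 and 0.6903 FPKM in the other miR-204 libraries and 1.14, 0.503 and 0.488 FPKM in the other miR-Ctrl libraries. Tnfaip2 (gene ID 21928, chr12:111442450-111455018), a TNF-induced gene, had 14.9 FPKM (miR-204) and 20.2 FPKM (miR-Ctrl) in replicate 2, against 6.54, 2.28 and 3.38 FPKM in the other miR-204 libraries and 6.65, 1.41 and 3.12 FPKM in the other miR-Ctrl libraries. For Tnfaip2 the replicate 1 libraries were again intermediate, and the miR-Ctrl library of replicate 2 was the highest. The remaining members of this group ranged between 2.27 times (Tnip1, a partner of A20) and 5.13 times (Map3k8, the kinase Tpl2) the other libraries. Among them, Birc2 and Birc3, the ubiquitin ligases cIAP1 and cIAP2, stood at 2.32 and 2.97 times. Ripk2, the kinase of NOD receptors, stood at 2.904 times, and Ikbke, a kinase related to the IkB kinases, at 2.42 times.

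Of the 8 cytokine genes on the list, 4 passed the minimum, and Il6 showed the widest range. Il6 (gene ID 16193, chr5:30013114-30019975), the interleukin-6 gene, had 4.07 FPKM (miR-204) and 6.24 FPKM (miR-Ctrl) in replicate 2, against 0.205, 0.113 and 0.0565 FPKM in the other miR-204 libraries and 0.189, 0 and 0.0283 FPKM in the other miR-Ctrl libraries. A single library was listed at 0. The replicate 2 mean of 5.15 FPKM compares with 0.0986 FPKM in the other 6 libraries, a ratio of 52.3 that rests on values near the lower end of the scale, in a gene that passed the minimum only through replicate 2. Csf1 (gene ID 12977, chr3:107741048-107760469), the macrophage growth factor gene and the highest cytokine gene of the list, had 81.3 FPKM (miR-204) and 55.3 FPKM (miR-Ctrl) in replicate 2, against 72.9, 37.8 and 39.7 FPKM in the other miR-204 libraries and 69.1, 25.9 and 35.6 FPKM in the other miR-Ctrl libraries. Here replicate 1 was as high as replicate 2, so the numbers did not separate. Il1rn, the IL-1 receptor antagonist gene, was highest in replicate 1, with 2.38 FPKM (miR-204) and 3.54 FPKM (miR-Ctrl), against 1.79 FPKM (miR-204) and 1.92 FPKM (miR-Ctrl) in replicate 2. Lif, an IL-6 family cytokine gene, differed by 1.47 times.

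Effector genes held the highest ratio of the list. Nos2 (gene ID 18126, chr11:78920787-78960226), inducible nitric oxide synthase, had 20.6 FPKM (miR-204) and 21.2 FPKM (miR-Ctrl) in replicate 2, against 0.902, 0.189 and 0.0404 FPKM in the other miR-204 libraries and 0.546, 0.03498 and 0.122 FPKM in the other miR-Ctrl libraries. Its replicate 2 mean of 20.9 FPKM stood against 0.306 FPKM in the other libraries (68.3 times), which ranked 20 of 12517 genes by log2 ratio, but Nos2 too was kept only because replicate 2 was high. Sod2 (gene ID 20656, chr17:13007839-13018119), the mitochondrial superoxide dismutase gene, had 109.8 FPKM (miR-204) and 124 FPKM (miR-Ctrl) in replicate 2, against 20.9, 17.5 and 15.9 FPKM in the other miR-204 libraries and 19.8, 16.2 and 15.2 FPKM in the other miR-Ctrl libraries. Ier3 (gene ID 15937, chr17:35821713-35822911), an immediate early gene of stress responses, had 76.5 FPKM (miR-204) and 91.7 FPKM (miR-Ctrl) in replicate 2, against 19.7, 12.4 and 12.9 FPKM in the other miR-204 libraries and 18.2, 9.39 and 11.6 FPKM in the other miR-Ctrl libraries. The other 6 libraries stayed within 15.2 to 20.9 FPKM for Sod2 and 9.39 to 19.7 FPKM for Ier3. The adhesion protein genes Icam1 and Vcam1 stood at 3.21 and 4.05 times the other libraries.

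The genes that carry cytokine signals onward had the same order of libraries. Cebpb (gene ID 12608, chr2:167688915-167690432), a transcription factor that acts with NF-kB on Il6, had 103 FPKM (miR-204) and 118 FPKM (miR-Ctrl) in replicate 2, against 31.7, 22.7 and 24.3 FPKM in the other miR-204 libraries and 31.6, 22.4 and 22.98 FPKM in the other miR-Ctrl libraries. Cebpd (gene ID 12609, chr16:15887286-15889545), its acute-phase relative, had 64.1 FPKM (miR-204) and 86.8 FPKM (miR-Ctrl) in replicate 2, against 15.1, 6.37 and 7.18 FPKM in the other miR-204 libraries and 12.98, 3.78 and 5.55 FPKM in the other miR-Ctrl libraries. Replicate 2 was above all others in both genes, by 4.27 and 8.88 times. Socs3, the inhibitor of IL-6 receptor signalling, had 5.62 FPKM (miR-204) and 12.5 FPKM (miR-Ctrl) in replicate 2, against 5.27 and 5.37 FPKM in replicate 1 and 1.26 to 3.10 FPKM in replicates 3 and 4.

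**Figure D2:**
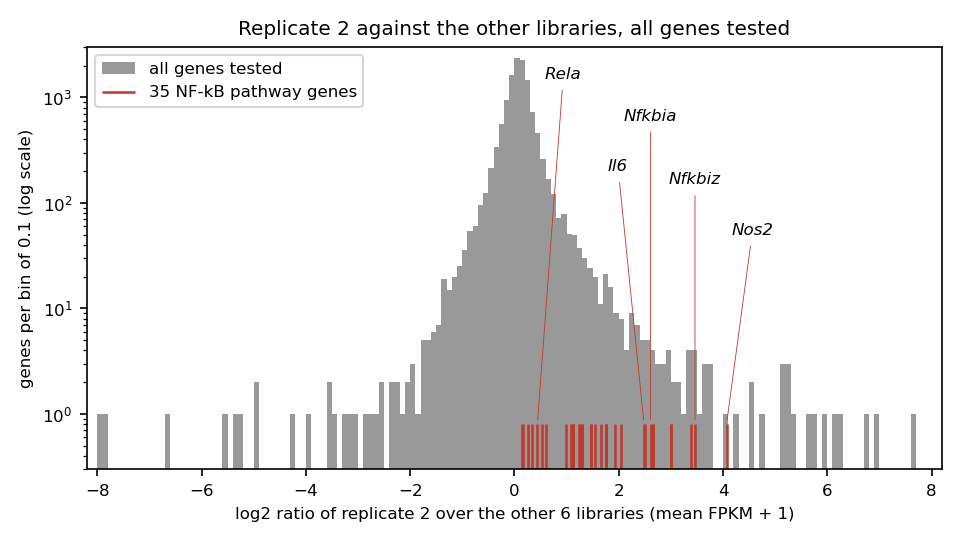
Distribution over all 12517 tested genes of the log2 ratio of the replicate 2 mean over the mean of the other 6 libraries (FPKM + 1, bins of 0.1, logarithmic count axis), with the 35 genes as red ticks. The median of all genes was 0.09 and that of the 35 genes 1.47, and Nos2 ranked 20.

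The separation of replicates 1, 3 and 4 among themselves also had an order. Both replicate 1 libraries were above all 4 libraries of replicates 3 and 4 in 27 of the 35 genes (77.1%), beside 13.4% of all tested genes. Summed over the 35 genes, the libraries of replicates 1 to 4 held 476, 1171, 261 and 272 FPKM with miR-204, against 404, 1153, 209 and 245 FPKM with miR-Ctrl.

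Replicate 2 was compared with the other 3 libraries of its own group. The log2 ratio had a median of 1.37 over the 35 genes with miR-204 and 1.70 with miR-Ctrl, against 0.08 and 0.10 over all genes. It was larger with miR-Ctrl in 22 of the 35 genes, and this was so in 56.9% of all tested genes. The widest gaps were those of Socs3 (0.60 with miR-204 and 1.73 with miR-Ctrl) and Cd14 (1.32 with miR-204 and 2.15 with miR-Ctrl). Each value rests on 1 replicate 2 library per group, so the difference between groups was not tested.

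**Figure D3:**
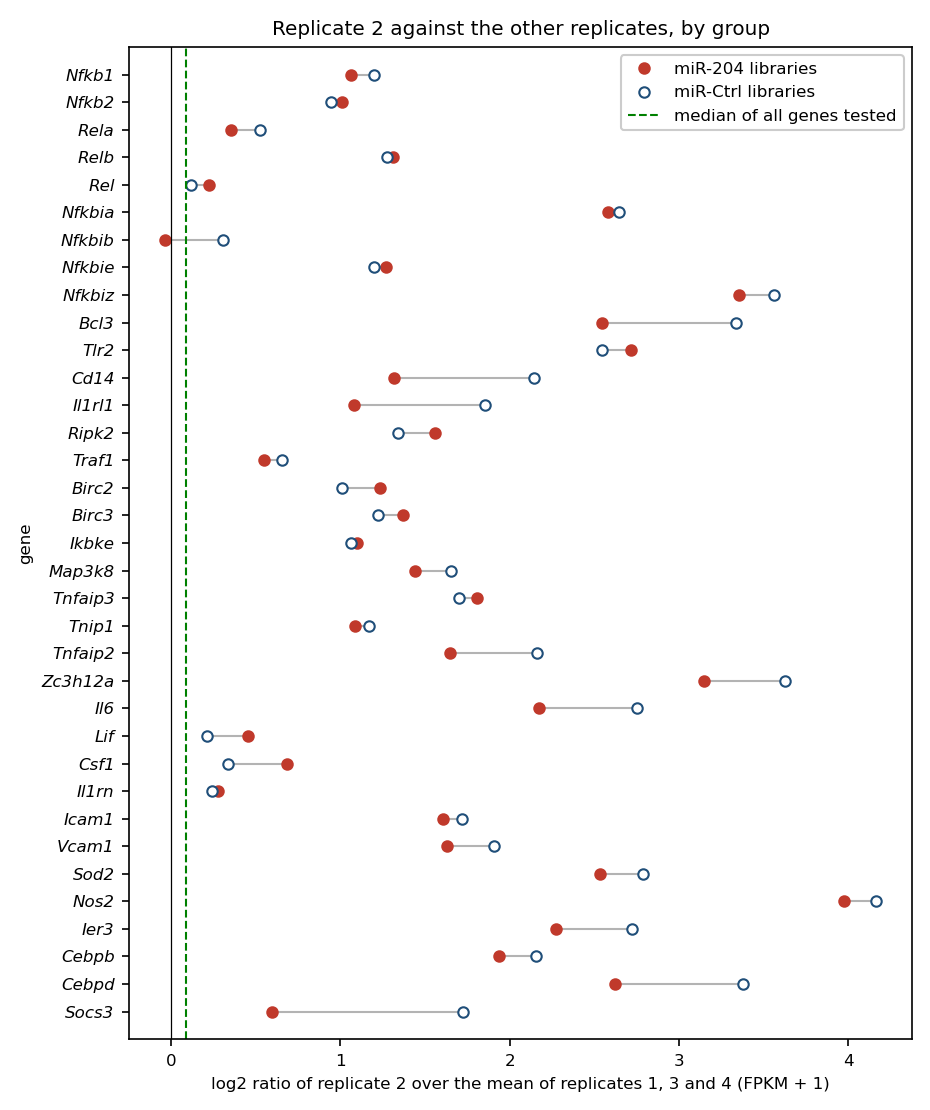
Log2 ratio of the replicate 2 library over the mean of replicates 1, 3 and 4 (FPKM + 1) within the miR-204 libraries (filled) and within the miR-Ctrl libraries (open) for each gene, with the median of all tested genes dashed at 0.09. In 22 of 35 genes the open circle lies further right, and Socs3 has the widest gap.

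The comparison the study was built for is miR-204 against miR-Ctrl. Without regard to replicate numbers, none of the 35 genes passed the test, either higher or lower (limma, Benjamini-Hochberg adjusted p at least 0.771, adjusted over all 12517 genes), and none had an unadjusted p under 0.05. Over all genes, 3 were higher (0.024%) and 21 lower (0.168%), and at an unadjusted p under 0.05 the shares were 6.57% higher and 1.96% lower. The spread between replicate numbers was wide beside the difference between groups. For Nos2, the log2 fold change was 0.09 ± 1.27 (SE), and for Nfkbia 0.20 ± 0.8596. All miR-204 libraries were above all miR-Ctrl libraries in 0 of the 35 genes, beside 4.31% of all tested genes, and below them in 0, beside 1.56%.

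Equal replicate numbers paired the libraries in these data, so the groups were also compared with the number as a block. In that fit 10 of the 35 genes (28.6%) rose with miR-204 and none fell, and 14 had an unadjusted p under 0.05, all of them higher. The shares of all tested genes were 11.7% higher and 2.7% lower after adjustment, and 29.3% higher and 5.46% lower at an unadjusted p under 0.05. With each library centred on its median, 6 of the 35 genes (17.1%) rose, beside 4.16% of all genes. The median log2 fold change of the 35 genes was 0.10, that of all genes 0.06. Centring moved these medians to 0.03 and −0.01. miR-204 was above miR-Ctrl within all 4 pairs in 13 of the 35 genes (37.1%), close to the 33.3% of all tested genes.

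Leaving out both libraries of a replicate number moved these counts. Without replicate 2, the block fit called 14 of the 35 genes higher, beside 22.6% of all genes, and 9 of the 10 were among them, all but Tnfaip3. The other 5 were Cd14, Il1rl1, Zc3h12a, Ier3 and Cebpd, with log2 fold changes of 0.27, 0.39, 0.22, 0.21 and 0.38 and limma adjusted p of 0.0308, 0.0288, 0.0299, 0.0495 and 0.02695 in that fit. Without replicate 1 it called none, with 12 higher at an unadjusted p under 0.05, beside 20.9% of all genes. Without replicate 3 it called Icam1, and without replicate 4 Tlr2 and Icam1. Over all genes it called 68, 195 and 28 higher without replicates 1, 3 and 4 (0.543%, 1.56% and 0.224%).

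Adhesion proteins were the group in which both members rose. Icam1 (gene ID 15894, chr9:21015940-21028814), an adhesion protein for leukocytes and a classical NF-kB target, had 89.5, 134, 18.7 and 21.9 FPKM in the miR-204 libraries, against 59.6, 99.6, 11.7 and 17.4 FPKM in the miR-Ctrl libraries, listed by replicates 1 to 4. The means were 66.04 ± 55.9 FPKM with miR-204 and 47.1 ± 41.04 FPKM with miR-Ctrl (SD, n = 4), and the groups overlapped, but each miR-204 library was above its partner. The log2 fold change with the block was 0.49 ± 0.0584 (SE), with a limma adjusted p of 0.00889 (unpaired adjusted p = 0.923). Vcam1 (gene ID 22329, chr3:116110020-116129688), another adhesion protein for leukocytes, had 8.69, 15.2, 1.68 and 2.31 FPKM in the miR-204 libraries, against 5.61, 12.6, 0.588 and 1.71 FPKM in the miR-Ctrl libraries. It averaged 6.96 ± 6.32 FPKM with miR-204 and 5.14 ± 5.45 FPKM with miR-Ctrl and rose by 0.46 ± 0.0907 on the log2 scale with the block (limma adjusted p = 0.0268, unpaired 0.923). With a pseudocount of 0.1 the block fit gave Vcam1 an adjusted p of 0.0522.

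Among receptors, Tlr2 rose, and Cd14 and Il1rl1 passed with the block without replicate 2 but not over all 8 libraries. The libraries of Tlr2, given above, averaged 31.96 ± 38.7 FPKM with miR-204 and 20.6 ± 23.8 FPKM with miR-Ctrl (SD, n = 4). Differences within pairs 1 to 4 were 0.67, 0.66, 0.50 and 0.19 on the log2 scale, all above 0. The block fit gave a log2 fold change of 0.50 ± 0.0843 (SE) and a limma adjusted p of 0.0183, against 0.9195 without the block. Cd14 had within-pair differences of 0.25, −0.57, 0.38 and 0.17, and Il1rl1 of 0.50, −0.38, 0.54 and 0.13, so pair 2 had the opposite sign to the others in both genes.

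Of the subunits, Relb and Nfkb2 rose. Relb (gene ID 19698, chr7:19606217-19629438) had 15.1, 28.9, 8.86 and 9.25 FPKM in the miR-204 libraries, against 12.8, 23.8, 6.77 and 8.097 FPKM in the miR-Ctrl libraries. Nfkb2 (gene ID 18034, chr19:46300994-46312400), whose product is processed to the partner of RelB, had 13.2, 23.1, 9.404 and 10.1 FPKM in the miR-204 libraries, against 11.4, 19.3, 7.82 and 9.33 FPKM in the miR-Ctrl libraries. Groups overlapped in both genes, and miR-204 was higher in 4 of 4 pairs. Relb averaged 15.5 ± 9.38 FPKM with miR-204 and 12.9 ± 7.72 FPKM with miR-Ctrl, and its log2 fold change was 0.25 ± 0.0414 (limma adjusted p with the block 0.0175, unpaired 0.927). Nfkb2 averaged 13.96 ± 6.29 FPKM with miR-204 and 11.96 ± 5.08 FPKM with miR-Ctrl, and its log2 fold change was 0.20 ± 0.0398 (limma adjusted p with the block 0.0287, unpaired 0.918). With centred libraries as well, Nfkb2 did not pass (adjusted p = 0.115). Nfkb1 and Rela did not pass, with log2 fold changes of 0.10 ± 0.352 and 0.06 ± 0.147 in the unpaired fit (limma adjusted p with the block 0.192 and 0.355). Rela turned to −0.01 with centred libraries.

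Of the IkB family, Nfkbie and Nfkbia rose. Nfkbie (gene ID 18037, chr17:45555700-45563169), the IkB-epsilon gene, had 4.37, 7.74, 1.92 and 1.59 FPKM in the miR-204 libraries, against 2.49, 5.04, 1.14 and 1.26 FPKM in the miR-Ctrl libraries. Means were 3.903 ± 2.84 FPKM with miR-204 and 2.48 ± 1.81 FPKM with miR-Ctrl, and the log2 fold change was 0.45 ± 0.0745 (limma adjusted p with the block 0.01798, unpaired 0.843). Nfkbia averaged 30.8 ± 35.5 FPKM with miR-204 and 27.1 ± 32.1 FPKM with miR-Ctrl, with within-pair differences of 0.26, 0.16, 0.27 and 0.10. Its log2 fold change of 0.20 ± 0.0427 had a limma adjusted p of 0.03402 with the block and 0.983 without it. The call did not hold with centred libraries (adjusted p = 0.113). Nfkbiz and Bcl3, which stood far apart in replicate 2, had log2 fold changes of −0.03 and −0.15 and did not pass.

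Among the signalling and feedback genes, Ikbke, Tnfaip3 and Tnip1 rose. Ikbke (gene ID 56489, chr1:131254600-131279601) had 5.28, 10.3, 3.53 and 4.001 FPKM in the miR-204 libraries, against 3.84, 7.75, 2.35 and 3.35 FPKM in the miR-Ctrl libraries. Tnip1 (gene ID 57783, chr11:54910787-54962956), which binds A20, had 15.5, 33.2, 15.9 and 14.00 FPKM in the miR-204 libraries, against 13.1, 30.4, 12.9 and 12.8 FPKM in the miR-Ctrl libraries. In both genes each miR-204 library exceeded its partner while the groups overlapped. The block fit gave Ikbke a log2 fold change of 0.34 ± 0.0509 (limma adjusted p = 0.0143, unpaired 0.846) on means of 5.77 ± 3.09 FPKM with miR-204 and 4.32 ± 2.36 FPKM with miR-Ctrl. Tnip1 averaged 19.6 ± 9.08 FPKM with miR-204 and 17.3 ± 8.74 FPKM with miR-Ctrl and rose by 0.18 ± 0.0415 (limma adjusted p with the block 0.0366, unpaired 0.935). Tnfaip3 averaged 2.24 ± 2.51 FPKM with miR-204 and 1.67 ± 1.95 FPKM with miR-Ctrl and rose by 0.25 ± 0.0564 (limma adjusted p with the block 0.0366, unpaired 0.953). With centred libraries Tnip1 and Tnfaip3 had adjusted p of 0.117 and 0.103. Without replicate 2, Tnfaip3 had an adjusted p of 0.0533.

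No cytokine, effector or cytokine response gene of the list passed either fit over all 8 libraries, while Ier3 and Cebpd passed with the block without replicate 2. Csf1 was above its partner in 4 of 4 pairs, with differences of 0.08, 0.55, 0.53 and 0.15 and a limma adjusted p of 0.0605 with the block. Il6 had differences of 0.02, −0.51, 0.15 and 0.04, and its log2 fold change was −0.08 with a limma adjusted p of 0.683 with the block. A pseudocount of 0.1 turned that fold change to 0.21. Nos2 had differences of 0.30, −0.04, 0.20 and −0.11. Of the 10 genes that rose, only Nfkb2 had a 7-base or 8-base seed match in its 3′ UTR, beside 26% of all tested genes with a 3′ UTR. Among the genes with such a match and no call over all 8 libraries, log2 fold changes ran from −0.08 (Il6) to 0.26 (Traf1). Il1rl1, with the 8-base match, had 0.20.

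**Figure D4:**
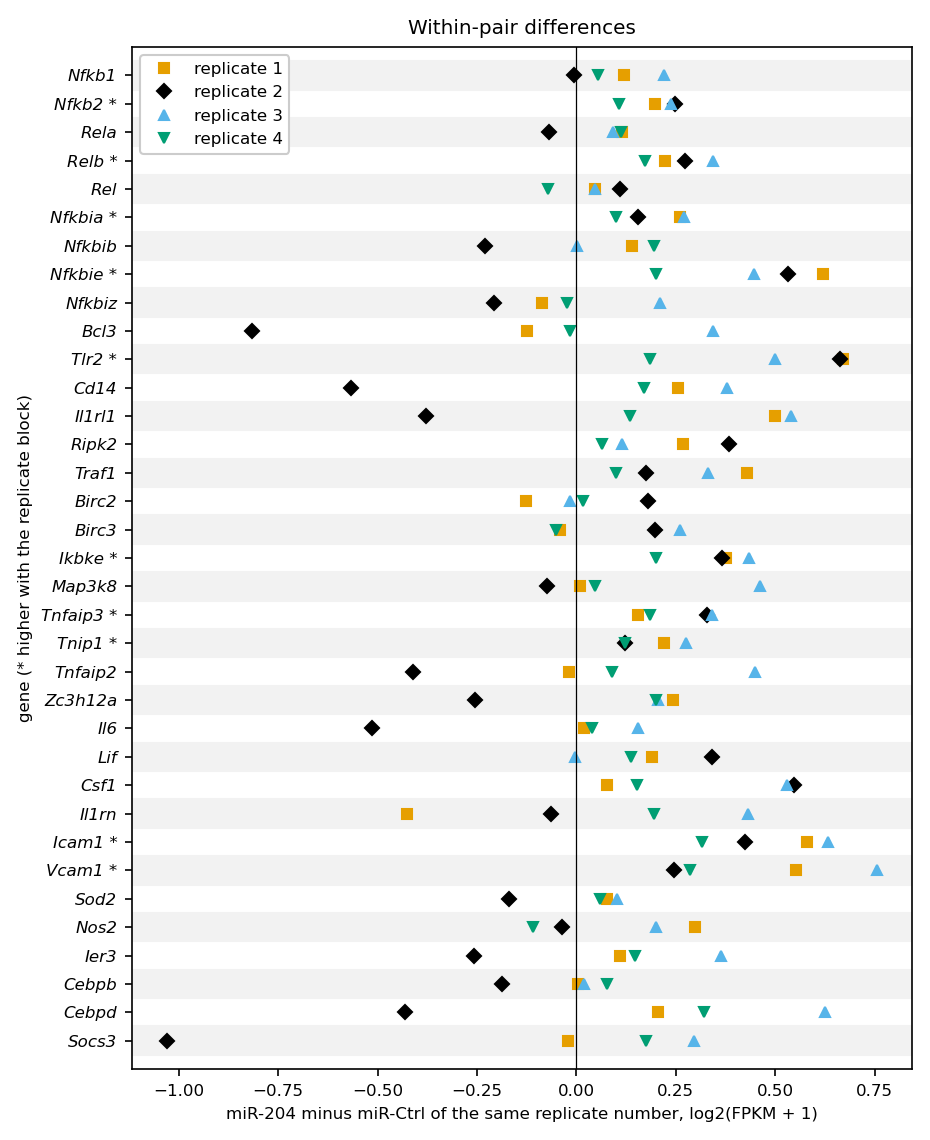
Difference in log2(FPKM + 1) between the miR-204 and the miR-Ctrl library of equal replicate number, for each of the 35 genes and 4 replicate numbers, with a star for genes higher in the fit with the replicate block. Pair 2 (black) spans −1.03 for Socs3 to 0.66 for Tlr2, and pair 3 lies above 0 in 33 of 35 genes, beside 73.8% of all tested genes.

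The pairs did not give the same picture. The median difference over the 35 genes was 0.15 in pair 1, −0.01 in pair 2, 0.30 in pair 3 and 0.12 in pair 4, while over all tested genes it was 0.05, 0.04, 0.10 and 0.07. Differences above 0 were found in 28, 17, 33 and 30 of the 35 genes (80%, 48.6%, 94.3% and 85.7%). Over all tested genes the shares above 0 were 63.9%, 61.4%, 73.8% and 70%. In 12 of the 35 genes (34.3%), miR-204 was lower in pair 2 and higher in the other 3 pairs, beside 15.8% of all tested genes. These were Nfkb1, Rela, Nfkbib, Cd14, Il1rl1, Map3k8, Zc3h12a, Il6, Sod2, Ier3, Cebpb and Cebpd. In pair 2, Socs3 differed by −1.03, Bcl3 by −0.82, Cd14 by −0.57, Il6 by −0.51 and Cebpd by −0.43 on the log2 scale. The 10 genes that rose with the block were above 0 in pair 2 as well, as the choice of genes by that fit favours.

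Other genes of the pathway were examined in 4 lists, chosen with earlier results of these data known. Without the block, none of the genes in these lists passed the limma test. Unadjusted p-values under 0.05 were found for 1 higher gene in each of 3 lists and for none of the IL-6 family list.

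Receptors and adaptors upstream of NF-kB had 28 tested genes, of which 5 rose and none fell with the block (12 higher and 1 lower at an unadjusted p under 0.05). That is 17.9% higher, beside 11.7% of all tested genes, and 42.9% at the unadjusted p, beside 29.3%. Tlr3, the sensor of double-stranded RNA, had 2.81, 2.77, 1.29 and 2.66 FPKM in the miR-204 libraries, against 1.91, 2.18, 0.823 and 1.61 FPKM in the miR-Ctrl libraries. Tollip, an adaptor that restrains IL-1 and Toll-like receptor signalling, had 25.2, 24.5, 21.4 and 24.3 FPKM in the miR-204 libraries, against 21.4, 21.9, 17.4 and 19.8 FPKM in the miR-Ctrl libraries. Each miR-204 library was above its partner in both genes, with log2 fold changes of 0.36 and 0.24 (limma adjusted p with the block 0.0161 and 0.0165). The others were the TNF receptor gene Tnfrsf1b (0.44, limma adjusted p 0.0323), the kinase gene Irak2 (0.30, 0.0238) and the lipopolysaccharide receptor gene Tlr4 (0.27, 0.0489). With centred libraries Tlr3 and Tollip rose and Tlr1 fell. The highest genes of the list, the decoy receptor gene Tnfrsf11b and the lymphotoxin receptor gene Ltbr, averaged 81.6 and 59.2 FPKM and did not pass. Both replicate 2 libraries were above the other 6 in 19 of the 28 genes, or in 17 of 26 without Cd40 and Tnfsf11, which passed the minimum only through replicate 2. The 17 of 26 are 65.4%, beside 29.5% of all genes that reached the minimum outside replicate 2.

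Of 24 tested genes for the IkB kinase complex, its ubiquitin machinery and other regulators, 2 rose and none fell with the block (4 higher and 2 lower at an unadjusted p under 0.05). Both shares of higher genes, 8.33% and 16.7%, were below the 11.7% and 29.3% of all tested genes. Cyld, a deubiquitinase that restrains the pathway, and Tab1, a partner of the kinase TAK1, had log2 fold changes of 0.19 and 0.15 (limma adjusted p with the block 0.0278 and 0.0401). Neither held with centred libraries. The highest genes, Commd1 and Tab2, averaged 43.1 and 38.1 FPKM and lay within 36.2 to 47.1 FPKM in all 8 libraries. In this list both replicate 2 libraries were above the rest in 10 of 24 genes (9 of 23 without Tnip3, which passed the minimum only through replicate 2), with a median log2 ratio of 0.10, against 1.47 for the 35 genes described above. The 9 of 23 are 39.1%, beside 29.5% of all genes that reached the minimum outside replicate 2.

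NF-kB target genes outside the 35 had the largest median ratio of replicate 2 over the other libraries among the further lists of pathway genes. They were chosen with earlier results of these data known, so that place may follow from the choice. Of 30 tested genes, 26 were above all other libraries in both replicate 2 libraries, and the median log2 ratio was 2.55. Without Mmp9, which passed the minimum only through replicate 2, these were 25 of 29 genes and 2.31. The 25 of 29 are 86.2%, beside 29.5% of all genes that reached the minimum outside replicate 2. Saa3, an acute-phase serum amyloid gene, had 16455 FPKM (miR-204) and 26618 FPKM (miR-Ctrl) in replicate 2, against 132, 173 and 23.8 FPKM in the other miR-204 libraries and 225, 57.5 and 17.9 FPKM in the other miR-Ctrl libraries. Lcn2, the iron-carrier binding protein lipocalin 2, had 5521 FPKM (miR-204) and 9134 FPKM (miR-Ctrl) in replicate 2, against 169, 87.9 and 32.1 FPKM in the other miR-204 libraries and 222, 44.2 and 29.98 FPKM in the other miR-Ctrl libraries. Cxcl1, a neutrophil-attracting chemokine gene, had 989 FPKM (miR-204) and 833 FPKM (miR-Ctrl) in replicate 2, against 50.5, 10.1 and 5.298 FPKM in the other miR-204 libraries and 32.5, 2.87 and 5.201 FPKM in the other miR-Ctrl libraries. The ratios of replicate 2 over the rest were 205, 75.1 and 51.3 times, and replicate 1 was intermediate for Lcn2 and Cxcl1. Saa3 held 3.40% (miR-204) and 5.42% (miR-Ctrl) of the summed FPKM of the replicate 2 libraries, against at most 0.0525% in the other 6.

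With the block, 11 of these 30 target genes rose with miR-204 and none fell (15 higher and 0 lower at an unadjusted p under 0.05), and 6 rose with centred libraries. These are 36.7%, 50% and 20% of the list, beside 11.7%, 29.3% and 4.16% of all tested genes. Ccl5, a chemokine for T cells and monocytes, had 3.88, 36.5, 2.29 and 1.67 FPKM in the miR-204 libraries, against 1.44, 21.1, 0.367 and 0.505 FPKM in the miR-Ctrl libraries. Its log2 fold change of 0.97 was the largest of the list (limma adjusted p with the block 0.00509). Ccl2, a monocyte chemokine gene, had 46.2, 536, 3.86 and 2.95 FPKM in the miR-204 libraries, against 20.9, 460.5, 1.51 and 1.63 FPKM in the miR-Ctrl libraries. Here replicate 2 was again far above the rest, and miR-204 was above its partner in all pairs (log2 fold change 0.72, limma adjusted p with the block 0.0266). Cx3cl1, Plau, Irf1 and Fas rose by 0.61, 0.51, 0.33 and 0.27, with limma adjusted p with the block of 0.0122, 0.00803, 0.0127 and 0.0239. They encode a chemokine, the urokinase protease, an interferon-regulatory transcription factor and a death receptor. Gbp2, Ccl20, Cxcl2, Bcl2l1 and Nuak2 passed with the block and not with centred libraries, with log2 fold changes of 0.55, 0.50, 0.43, 0.25 and 0.21. Saa3, Lcn2 and Cxcl1 did not pass (limma adjusted p with the block 0.848, 0.9796 and 0.1197).

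In the list for IL-6 family and colony stimulating factor signalling, none of 21 tested genes passed with the block (6 higher and 1 lower at an unadjusted p under 0.05). The 28.6% higher at the unadjusted p is close to the 29.3% of all tested genes. Il6st, the shared receptor subunit gp130, had 159.7 FPKM (miR-204) and 159.5 FPKM (miR-Ctrl) in replicate 2, against 88.8, 48.4 and 69.1 FPKM in the other miR-204 libraries and 87.2, 46.5 and 67.9 FPKM in the other miR-Ctrl libraries. Stat3, the transcription factor downstream of it, had 43.5 FPKM (miR-204) and 50.9 FPKM (miR-Ctrl) in replicate 2, against 39.4, 28.6 and 33.2 FPKM in the other miR-204 libraries and 38.2, 27.5 and 30.99 FPKM in the other miR-Ctrl libraries. Replicate 2 was above all other libraries in both genes, 2.35 and 1.43 times in the mean, and 13 of the 21 genes had that order. That is 61.9%, beside 29.5% of all genes that reached the minimum outside replicate 2.

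Markers of other cell types were examined beside these results. Of 12 myeloid markers measured, 3 reached the minimum, and the summed level of all 12 ran between 12.8 and 19.5 FPKM with miR-204 and between 8.71 and 16.1 FPKM with miR-Ctrl. Cd68, a lysosomal protein of macrophages and other cells, had 4.75, 4.74, 3.49 and 2.76 FPKM in the miR-204 libraries, against 2.003, 2.22, 0.545 and 1.28 FPKM in the miR-Ctrl libraries and rose with the block (1.01, limma adjusted p 0.01104). Lyz2, the highest of the 12, had 11.1, 10.8, 4.98 and 5.90 FPKM in the miR-204 libraries, listed by replicates 1 to 4. In the miR-Ctrl libraries it had 10.02, 9.51, 2.55 and 3.16 FPKM. Lyz2 was thus higher in replicates 1 and 2 than in replicates 3 and 4 of both groups. Laptm5, with a mean of 3.56 FPKM, had the opposite order. Of the myeloid genes under the minimum, Ptprc, Csf1r and Itgam averaged 0.0109, 0.111 and 0.0195 FPKM. Aif1 had 0.402 FPKM (miR-204) and 0.368 FPKM (miR-Ctrl) in replicate 2, against at most 0.115 FPKM in the other libraries. Ptprc and Csf1r also lay above all other libraries in replicate 2, at levels near 0. Itgam, Emr1, Tyrobp, Mrc1, Cd52 and Fcer1g did not. For neutrophil markers, S100a8 reached 1.33 FPKM (miR-204) and 3.45 FPKM (miR-Ctrl) in replicate 2, against 0 to 0.7001 FPKM in the other libraries, while S100a9 was listed at 0 in all 8 libraries and Mpo averaged 0.00169 FPKM. S100a8 passed the minimum only through replicate 2, so its excess there was built in. Lymphocyte markers were listed at 0 in all libraries for 5 of 6 genes, and endothelial markers summed to at most 0.440 FPKM. Synovial fibroblast markers summed to 731 to 1616 FPKM with miR-204 and to 766 to 1513 FPKM with miR-Ctrl. Most of that sum was Col1a1, which averaged 1074 FPKM. With the block 2 of 6 tested genes rose, Dpt (0.69) and Thy1 (0.42), which is 33.3%, beside 11.7% of all tested genes. Thy1 did not pass with centred libraries as well (limma adjusted p = 0.0533). Of 10 chondrocyte markers, 2 fell with miR-204 in the block fit, beside 2.7% of all tested genes. They were Hapln1 and Comp, with log2 fold changes of −1.04 and −0.17 (limma adjusted p 0.00154 and 0.0463). At an unadjusted p under 0.05, 5 were lower and 1 higher (50% and 10%), beside 5.46% and 29.3% of all tested genes. With centred libraries Sox9 fell too (limma adjusted p = 0.0176), making 3 of 10, beside 4.27% of all tested genes. The part of these cell type markers in the results for the 35 genes was not tested.

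The genes whose pattern over the 8 libraries was most like that of Il6 were Batf, Arg2, Il13ra2, Kank4 and Orm1, with Pearson r of 0.997 to 0.999 on log2(FPKM + 1). All 5 were high in replicate 2 and low elsewhere. Batf, an AP-1 family transcription factor gene, had a mean of 12.4 FPKM in replicate 2 and 0.955 FPKM in the other libraries. Arg2, Il13ra2, Kank4 and Orm1 averaged 0.159, 0.126, 0.300 and 0.101 FPKM outside replicate 2. Like Il6, these passed the minimum only through replicate 2, so their excess there was built in. After the means of replicate 2 and of the other libraries were subtracted, the 5 most alike were Bnip3, Smap2, Yipf3, Eno1 and Fam43a (r = 0.969 to 0.986). None of the 10 belongs to the 35. With 8 libraries that share their replicate numbers these values are descriptions.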

How the data were processed

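The authors deposited 1 table with an FPKM value per gene for each of the 8 libraries. Per the labels' protocols, a stranded kit for polyadenylated RNA was used. The submitters' processing notes name TopHat, Cufflinks 2.2.1 and the build mm10, and give no further step in the sources used here. Read totals are not given, so depth was read only relatively, from the steps between low FPKM values. FPKM values are not counts, and no count model was used.

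Symbols that were missing or turned into dates were restored through the gene ID in 156 cases and not in 2. The labels gave each library's group and replicate number. The test was limma 3.58.1 (R 4.3.3, trended prior, two-sided) on log2(FPKM + 1), applied to the 12517 genes that averaged 0.5 FPKM or more, with Benjamini-Hochberg adjustment at 0.05. Fold changes on this scale understate changes of low genes. The first fit left out the replicate number, and the second had it as a block. The numbers paired the libraries: deviations from the group means correlated at r = 0.445, 0.813, 0.747 and 0.614 for replicates 1 to 4, and each library correlated best with its own number. The labels give the number alone, so this pairing was read from the data. Both fits were tested on simulated data with 12517 genes and the same groups. Of genes with a 1.5-fold change, 58% were recovered without the block and 88% with it, and of genes with a 2-fold change 89% and 96%. The fits called 0 and 6 unchanged genes. The changed genes were drawn from all tested genes except low ones. The recovered shares may therefore not hold for low genes or for genes with a wide spread between replicate numbers.

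Replicate 2 was compared with the other 6 libraries as a description. The 3′ UTRs came from the GENCODE M21 annotation of the same assembly, and promoter windows, gene positions and the miRNA from RefSeq on GRCm38.p6. Values in every library are given for genes called in either fit, the 12 with the largest replicate 2 ratios, the 6 highest, the 6 with the largest fold changes, and Nfkb1, Rela, Nfkbia, Tnfaip3, Il6, Tnf, Il1b and Nos2. Of the further lists, called genes, the 2 highest and Saa3, Lcn2 and Cxcl1 are named. The members and lists were chosen with earlier results of these data known. Other settings tried were the pseudocount, the minimum, centring, quantile normalization and leaving out libraries.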

Additional observations from a re-analysis of the deposited data

Results flagged for a closer look

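In groups of 4 libraries, 11 of 70 combinations of gene and group had a library whose gap to the nearest other exceeded the 95% critical value of Dixon's test on log2(FPKM + 1). Chance flags about 1 in 20 such groups, and over all tested genes 6.08% were set apart, beside 15.7% here. Replicate 2 had been singled out on these values, and Il6 and Nos2 passed the minimum only through it, so the shares are a description. All 11 were the replicate 2 library, on the high side, and they fell on 7 genes. Over all tested genes, 696 of 1521 flagged groups were of this kind, which is 2.78% of all groups. The gap, as a share of the group's whole range, is given for each of the 11.

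Il6 was set apart in both groups, with shares of 0.9164 (miR-204) and 0.9125 (miR-Ctrl). Sod2 followed with 0.8608 (miR-204) and 0.8779 (miR-Ctrl), and Tnip1 with 0.8579 (miR-204) and 0.9698 (miR-Ctrl). Birc2 had 0.9114 (miR-204) and 0.8295 (miR-Ctrl). Nfkb1 and Birc3 were set apart with miR-204 only, at 0.8742 and 0.8622, and Nos2 with miR-Ctrl only, at 0.869. Genes with a wide replicate 2 ratio but a raised replicate 1, such as Bcl3 and Nfkbia, did not reach the critical value.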

How the results depend on the processing

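Read totals and separate cultures are not given. The count of genes higher with miR-204 was 3 in the unpaired fit, 1459 with the replicate block, 521 with the block and centred libraries, 1452 with the block and a pseudocount of 0.1, 0 without a minimum, 8 with centred libraries and 7 with quantile normalization. The count lower was 21, against 338, 534 and 342 in those block fits and 9, 56 and 64 in the others. Leaving out libraries gave 0 to 5 higher and 0 to 16 lower. Of the 35 genes, the block fit called 10, with centred libraries 6 and with a pseudocount of 0.1 9, while 0 were called in any fit without the block. With the block and quantile normalization, 556 genes were higher, 527 lower, and 6 of the 35 higher. Leaving out a replicate number in the block fit gave 28 to 2828 genes higher, 40 to 522 lower and 0 to 14 of the 35 higher. The paired fit changed no call in the direction of lower for the 35 genes.

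The count of genes above all other libraries in replicate 2 was 29 to 33 of those kept, and its median log2 ratio was 1.29 to 1.76 when replicate 1, 3 or 4 was left out. Leaving out libraries, mostly miR-204 or miR-Ctrl replicate 2, moved log2 fold changes in the unpaired fit across 0: Nfkb1 −0.17 to 0.40, Nfkb2 −0.059 to 0.44, Rela −0.026 to 0.19, Relb −0.084 to 0.58, Nfkbia −0.47 to 0.87, Nfkbiz −0.88 to 0.89, Bcl3 −0.84 to 0.75, Tlr2 −0.19 to 1.15, Il1rl1 −0.14 to 0.68, Tnfaip3 −0.20 to 0.68, Tnip1 −0.087 to 0.48, Il6 −0.62 to 0.61, Icam1 −0.0049 to 1.00, Vcam1 −0.035 to 1.00 and Nos2 −0.92 to 1.14. Csf1, Nfkbie and Ikbke stayed above 0. Rela was −0.0089 with centred libraries, and Il6 was 0.21 with a pseudocount of 0.1, with and without the block. With the block, leaving out a replicate number gave Nfkbiz −0.11 to 0.034, Bcl3 −0.32 to 0.068 and Il6 −0.15 to 0.071. The cause was not tested. Values are given for genes whose fold change is stated above. Over all 35 genes the sign changed in 30 when libraries were left out of the unpaired fit, in 13 when a replicate number was left out with the block, in 8 with centred libraries and in 7 with quantile normalization. It changed in 0 of the 23 called genes of the further lists and cell type markers under the alternatives of the block fit, as the choice of genes by that fit favours. Adjusted p-values of the 10 called genes over 8 alternatives of the block fit ran from 0.00829 to 0.143. Icam1 passed in 7 of the 8, Tlr2 in 6, and Relb, Nfkbie and Ikbke in 5 each. Vcam1 passed in 4, Nfkb2, Nfkbia and Tnip1 in 3 each, and Tnfaip3 in 2.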
